A study of Mus musculus with 6 samples.

Results

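Voltage-gated sodium channel subunit genes were examined in cultured satellite cells (SCs), the stem cells of skeletal muscle, from mice with and without an induced deletion in the NF-YA gene. The 8 members were chosen by name among the 35976 genes of the tables. Their rows were Scn1a, Scn2a1, Scn3a, Scn4a, Scn8a, Scn2b, Scn3b and Scn4b. The rule used no measured value, but the members were chosen with earlier results of these data known. They comprise 5 genes of pore-forming alpha subunits and 3 genes of auxiliary beta subunits. All 8 were listed in the tables, and 6 passed the filter on low values (more than 10 counts in at least 2 libraries). Scn8a and Scn4b did not.

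RNA-seq gave 3 libraries of SC cultures from conditional knockout (NF-YA cKO) mice and 3 from control (NF-YA fl/fl) mice. All mice were injected with tamoxifen (20 mg/ml) and given in the labels as 5 to 7 weeks old. Both groups carried floxed Nfya alleles, with LoxP sites in introns flanking the deleted exons. NF-YA cKO mice also carried Pax7-CreERT2, a tamoxifen-inducible Cre made in cells that express Pax7, a transcription factor of SCs, while NF-YA fl/fl mice had no Cre and served as controls, so that the Cre itself differed between the groups along with the deletion. The cells were enriched by magnetic removal of cells bearing endothelial, leukocyte and Sca1 surface proteins and were cultured in growth medium before RNA was taken, so that the deletion reached only the cells in which Cre had acted.

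A voltage-gated sodium channel opens when the membrane depolarizes and carries the inward sodium current that starts an action potential. Each channel has 1 alpha subunit, which contains the pore and the voltage sensors, and may bind beta subunits, single-span membrane proteins that alter gating and surface expression. In adult skeletal muscle the alpha subunit is Nav1.4, encoded by Scn4a, and most of the other alpha subunits are best known from neurons.

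In NF-YA cKO cultures transcripts of Scn4a, the muscle alpha subunit, of Scn3a, an alpha subunit of the developing nervous system, and of Scn3b, an auxiliary subunit, were far scarcer than in NF-YA fl/fl cultures. Fitted differences were 177-fold for Scn4a, 128-fold for Scn3a and 10.7-fold for Scn3b. Scn2a1 and Scn1a did not pass the test, and Scn2b, at very low counts, was higher in every NF-YA cKO library without passing the stricter threshold. The quantities below describe each gene: the expected count, which is RSEM's estimate of the reads from a gene, CPM, the count scaled to the size of its library by the trimmed mean of M-values (TMM), and TPM, the deposited transcript level, which also divides by transcript length and is the only one used to compare different genes.

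The NF-YA fl/fl libraries held 26936230 to 33316730 expected counts and the NF-YA cKO libraries 31040863 to 41118984. The transcript entry for the deleted Nfya allele took 22.3% to 34.2% of the Nfya counts in NF-YA cKO and 0 in NF-YA fl/fl, so that most Nfya counts of the NF-YA cKO cultures were assigned to forms without the deletion. Total Nfya was 28.7 ± 7.20 CPM in the control libraries and 27.5 ± 0.874 CPM in the NF-YA cKO libraries (log2 fold change -0.06, edgeR adjusted p = 0.814). Xist, the RNA of the inactive X chromosome, stood at 0.389 ± 0.0846 CPM (SD, n = 3) in the control libraries and 843 ± 8.35 CPM in the NF-YA cKO libraries. Ddx3y, a Y-linked gene, had at most 3 counts in every NF-YA cKO library and 84.9 ± 3.82 CPM in NF-YA fl/fl, so that in these libraries the genotype and the sex-linked pattern cannot be told apart, although the methods describe male mice. Markers of differentiated muscle were measured in NF-YA cKO at a summed 47.6 to 119 TPM against 6008 to 9959 TPM in NF-YA fl/fl, and macrophage markers at 158 to 305 TPM against 4.2 to 18.2 TPM. The SC markers Pax7, Myf5, Myod1, Cdh15, Itga7, Vcam1, Sdc4 and Des were all detected, with a sum of 712 to 820 TPM in NF-YA cKO and 1174 to 1483 TPM in NF-YA fl/fl. Des, the muscle intermediate filament gene, had the largest difference within this sum (120 ± 19.1 and 541 ± 71.2 TPM), and Pax7 differed in the other direction (35.2 ± 6.597 and 19.4 ± 3.69 TPM). In bulk RNA, fewer cells of a kind and less RNA per cell cannot be told apart.

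NF-Y, the trimer that contains NF-YA, recognizes the CCAAT box, and myogenic helix-loop-helix factors recognize the E-box CANNTG, so the sequence before the annotated starts of the members is shown first. Promoter windows from RefSeq (GRCm38.p6), each from 250 bases before to 50 bases after a start, were matched by symbol for 6 of the 8 members, with 8 windows in all. Scn3a and Scn3b had no entry. The 250 bases before the start are printed 5′ to 3′ on the strand of the gene for Scn4a, the member with the largest fall, at chr11:106349391-106349640 on the minus strand, and for Scn2b, the member that was higher in every NF-YA cKO library, at chr9:45117626-45117875 on the plus strand. Capitals mark CANNTG matches.
Scn4a: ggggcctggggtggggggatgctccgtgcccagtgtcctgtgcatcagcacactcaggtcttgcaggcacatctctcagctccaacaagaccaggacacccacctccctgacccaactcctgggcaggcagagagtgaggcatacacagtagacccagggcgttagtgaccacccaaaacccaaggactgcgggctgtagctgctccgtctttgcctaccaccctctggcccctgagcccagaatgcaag
Scn2b: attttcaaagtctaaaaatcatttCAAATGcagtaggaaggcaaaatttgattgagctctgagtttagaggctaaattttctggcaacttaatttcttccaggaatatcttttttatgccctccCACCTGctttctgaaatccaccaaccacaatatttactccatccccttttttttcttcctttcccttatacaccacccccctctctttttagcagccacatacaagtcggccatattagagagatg
The Scn4a window held no CCAAT on either strand and no CANNTG, and is therefore all in lower case. This window precedes the start of the 6598-nt RefSeq form of Scn4a, which received 0 counts in all 6 libraries. It lies inside the annotated span of the gene (chr11:106317545-106365559) and not before the 5′ end of that span. Where the 8125-nt form that received most counts starts is not given in the reference used here, so the sequence before that start was not examined.

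Over the 8 windows CCAAT was found in 2, Scn1a and Scn4b, against 37.41% of all 32851 windows of this length in the mouse. In Scn1a the box began 63 bases before the start, and in Scn4b the complement, ATTGG, began 67 bases before it. The 29 bases around each are shown because they are the only CCAAT matches among the members, at chr2:66440884-66440912 on the minus strand and chr9:45138545-45138573 on the plus strand, with the box in capitals.
Scn1a: tgcttgctgctgCCAATacttcttactct
Scn4b: actcttctcctaATTGGcagctcggcgct
CANNTG was found in 4 of the 8 windows, against 72.31% of all windows. The matches lay in Scn1a, Scn8a and Scn2a1 and, with 3 matches, in Scn2b, where 1 of the 3 falls after the start and so outside the printed stretch. CAGCTG, a palindromic form contained in CANNTG, was found in 0 of the 8 windows and in 16.3% of all windows. The absence of a match says only that these letters are not in these bases.

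Scn4a had the highest mean TPM of the members in NF-YA fl/fl, although Scn3b was above it in replicate 3 (9.87 and 6.1 TPM) and the libraries of the 2 genes overlapped. The gene occupies chr11:106317545-106365559 on the minus strand (GRCm38). Its expected counts were 2146, 2079 and 1501 in NF-YA fl/fl replicates 1, 2 and 3, and 10, 13 and 19 in NF-YA cKO replicates 1, 2 and 3. The lowest control library therefore had 1501 counts and the highest NF-YA cKO library 19. Mean CPM was 64.9 ± 15.8 in NF-YA fl/fl and 0.360 ± 0.0752 in NF-YA cKO (SD, n = 3 each). The log2 fold change was -7.47 (SE 0.27, edgeR quasi-likelihood test, Benjamini-Hochberg adjusted p = 4.1e-05), and 48 of the 17348 tested genes had a lower one. Pooled over libraries, 5726 counts in NF-YA fl/fl and 42 in NF-YA cKO gave a ratio of 170 per count sequenced, with a 95% exact interval of 126 to 236 for counting error only. Scn4a passed the test under all 16 alternative settings.

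Scn3a encodes Nav1.3, which is best known from embryonic neurons. It lies at chr2:65457118-65567591 on the minus strand, 53.2 kb from Scn2a1 in the alpha subunit cluster of chromosome 2. Expected counts were 142, 115 and 271 in NF-YA fl/fl replicates 1 to 3, and 1.02, 2 and 2 in NF-YA cKO replicates 1 to 3. All NF-YA cKO libraries were under 3 counts, so the pooled ratio carries the information on size: 528 counts against 5, a ratio of 132 with an interval of 56.0 to 407. CPM was 6.01 ± 2.93 in NF-YA fl/fl and 0.0424 ± 0.00911 in NF-YA cKO, with a fitted log2 fold change of -7.00 (SE 0.56, edgeR adjusted p = 0.000347). The call was kept under 15 of 16 alternatives. It was lost with limma on log2(TPM + 1), where the log2 difference was -0.81 (adjusted p = 0.0078), a scale on which the pseudocount of 1 limits the fall of a gene with a TPM near 1.

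The other chromosome 2 genes of the set did not follow Scn3a. Scn2a1, the gene of Nav1.2 of neuronal axons, lies at chr2:65620764-65767447 on the plus strand under the annotated symbol Scn2a, and Scn1a, the gene of Nav1.1 of inhibitory neurons, lies 503 kb further along at chr2:66270781-66440837 on the minus strand. Scn2a1 had 84.4, 126 and 22.9 expected counts in NF-YA fl/fl replicates 1 to 3 and 42, 60 and 56 in NF-YA cKO replicates 1 to 3. The NF-YA cKO values fell inside the control range. The log2 fold change of Scn2a1 was -0.91 (SE 0.52, edgeR adjusted p = 0.206). NF-YA fl/fl replicate 3 decided this outcome, since without it the log2 fold change was -1.35 (edgeR adjusted p = 0.00226). Scn1a had 12, 21.1 and 5.21 expected counts in NF-YA fl/fl and 7, 3 and 18 in NF-YA cKO. The groups overlapped and the log2 fold change of Scn1a was -0.79 (SE 0.69, edgeR adjusted p = 0.396), so that at this depth neither a change nor its absence was detectable.

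Scn8a encodes Nav1.6, the main channel of the nodes of Ranvier, at chr15:100869863-101045938 on the plus strand. It had 8, 10 and 11 counts in NF-YA fl/fl and 4, 10 and 5 in NF-YA cKO, below the filter. Scaled to depth these were 0.325 ± 0.0416 CPM and 0.162 ± 0.0688 CPM. The highest NF-YA cKO library (0.241 CPM) was then below the lowest control library (0.297 CPM), a pattern that 26.2% of all tested genes showed. When no filter was applied the log2 fold change of Scn8a was -0.94 (SE 0.49, edgeR adjusted p = 0.206), which did not pass.

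Among the beta subunit genes Scn3b carried the difference. Its protein associates non-covalently with alpha subunits. It lies at chr9:40269216-40291618 on the plus strand. Expected counts of Scn3b were 542, 397 and 1219 in NF-YA fl/fl replicates 1 to 3 and 74, 74 and 117 in NF-YA cKO replicates 1 to 3. The groups did not overlap, although the control libraries differed widely among themselves, with 24.6 ± 15.2 CPM against 2.30 ± 0.485 CPM in NF-YA cKO. The log2 fold change of Scn3b was -3.42 (SE 0.48, edgeR adjusted p = 0.00247), and the pooled counts of 2158 and 265 gave a ratio of 10.1 with an interval of 8.93 to 11.6. The call of Scn3b held under 11 of 16 alternatives. It was lost without NF-YA cKO replicate 1, 2 or 3 (edgeR adjusted p = 0.0132, 0.0169 and 0.0122), without NF-YA fl/fl replicate 1 (0.0103), and when changes beyond 1, rather than any change, were tested (0.0110), with log2 fold changes between -3.76 and -2.16 over all alternatives.

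Scn2b and Scn4b, whose proteins are linked to alpha subunits by a disulfide bond, are neighbors on chromosome 9, at chr9:45117876-45130070 and chr9:45138624-45154155 on the plus strand, with 8.55 kb between them. Scn2b had 6.01, 3.64 and 9 counts in NF-YA fl/fl and 18, 19.8 and 33.1 in NF-YA cKO. The lowest NF-YA cKO library was above the highest control library, at means of 0.611 ± 0.150 CPM and 0.218 ± 0.0937 CPM. The log2 fold change of Scn2b was 1.49 (SE 0.42, edgeR adjusted p = 0.0309), which missed the threshold of 0.01 and passed only at 0.05. Scn4b had 5, 2 and 3 counts in NF-YA fl/fl and 3, 11 and 4 in NF-YA cKO, with overlapping groups and, when no filter was applied, a log2 fold change of 0.46 (SE 0.71, edgeR adjusted p = 0.666).

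**Figure D1:**
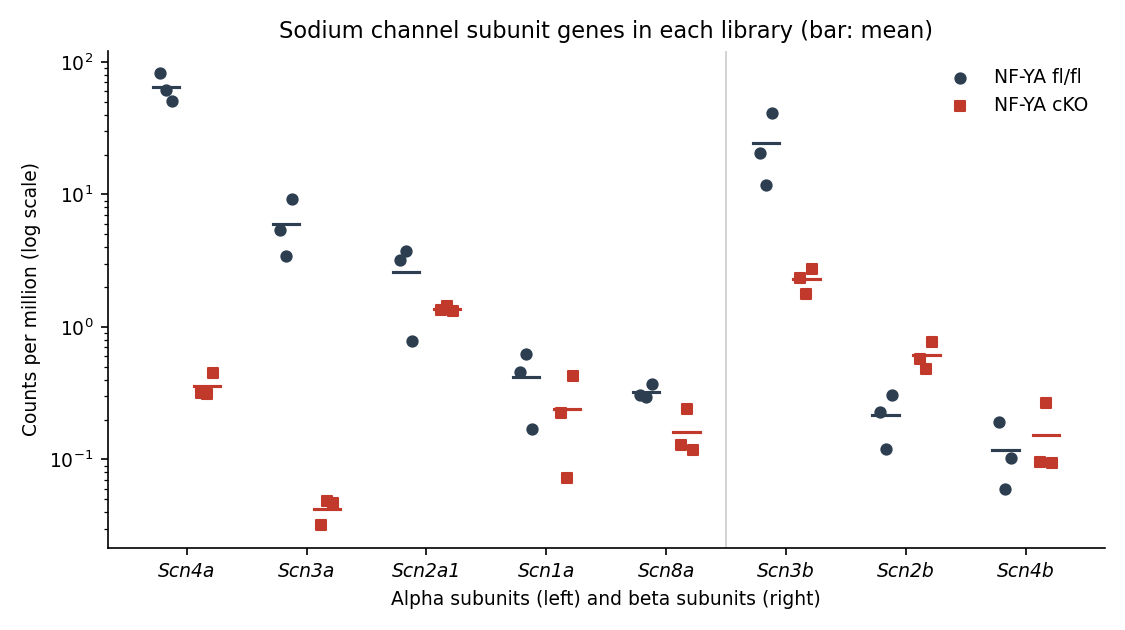
CPM (TMM-scaled, log axis) of the 8 members in each of the 3 NF-YA fl/fl libraries (circles) and the 3 NF-YA cKO libraries (squares), with the mean as a bar. Scn4a, Scn3a and Scn3b are separated by a wide gap. At under 1 CPM, Scn2b is reversed and Scn8a is lower in every NF-YA cKO library by a narrow gap. Scn2a1, Scn1a and Scn4b overlap.

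Of the 6 tested members, 3 were called lower and 0 higher at an adjusted p under 0.01 and a log2 fold change beyond 1. Over all 17348 tested genes, 1331 (7.67%) were called lower and 806 (4.65%) higher. At an adjusted p under 0.05, 1 member (Scn2b) was called higher. DESeq2 called as many members as edgeR, 3 lower and 0 higher, and with an unadjusted p under 0.05 in edgeR 3 were lower and 1 was higher. In 3 tested members the highest NF-YA cKO library was below the lowest control library, and in 1 the lowest was above the highest control library, where 26.2% and 29.1% of all tested genes showed these patterns. Over the 6 tested members the log2 fold change had a median of -2.17, and over all tested genes one of -0.02. Scn3a, with at most 2 counts in NF-YA cKO, passed the filter only through NF-YA fl/fl. Scn2b, with at most 9 counts in NF-YA fl/fl, passed only through NF-YA cKO. For both genes the filter itself favored the direction seen, so these counts of members are a description.

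**Figure D2:**
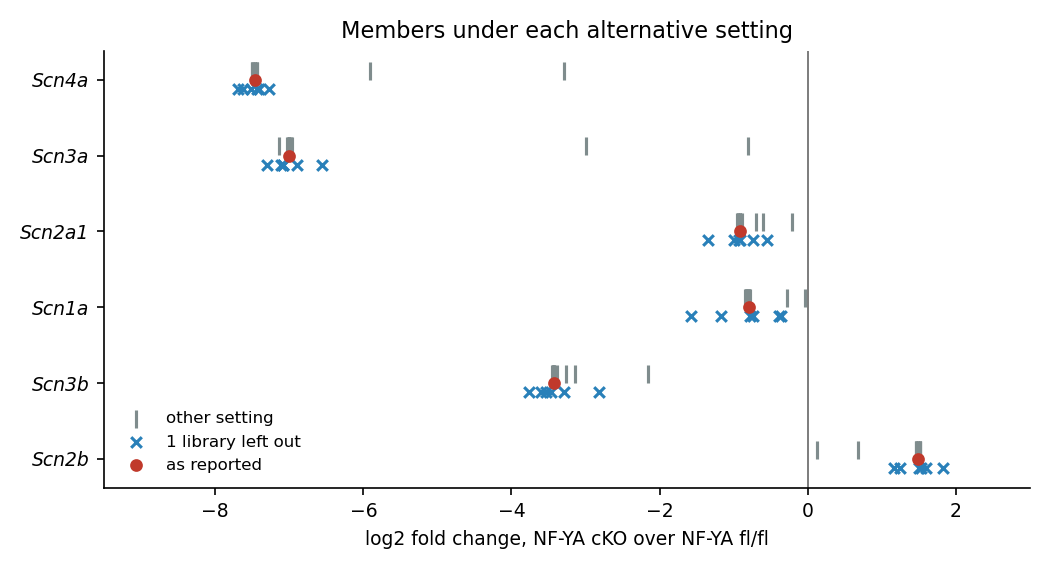
Log2 fold change of the 6 tested members as reported (red), with 1 library left out (blue crosses) and under the other alternative settings (grey ticks). Scn4a stays between -7.69 and -3.29 and Scn3b between -3.76 and -2.16. The values of Scn3a, Scn4a and Scn2b nearest to 0 come from limma on log2(TPM + 1).

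Because levels of different genes can be compared only per length, the composition of the channel transcripts was described in TPM. The 5 alpha members summed to 13.1, 12.5 and 7.32 TPM in NF-YA fl/fl replicates 1 to 3 and to 0.29, 0.28 and 0.34 TPM in NF-YA cKO replicates 1 to 3. Within this sum Scn4a made up 83.3% to 90.4% in NF-YA fl/fl and 17.2% to 20.6% in NF-YA cKO, where Scn2a1 made up 50% to 62.1%, against 1.23% to 4.72% in NF-YA fl/fl. In TPM the order of the alpha members in NF-YA fl/fl was Scn4a (9.72 ± 3.15), Scn3a (0.773 ± 0.242), Scn2a1 (0.367 ± 0.254), Scn1a (0.0633 ± 0.0451) and Scn8a (0.0533 ± 0.0231), and each gene after Scn4a overlapped with its neighbor in this order. In NF-YA cKO the order was Scn2a1 (0.170 ± 0.01), Scn4a (0.0567 ± 0.0115), Scn8a (0.0367 ± 0.0115), Scn1a (0.0333 ± 0.0252) and Scn3a (0.00667 ± 0.00577). Scn2a1 lay above all other alpha members in every NF-YA cKO library, and the neighbors below it overlapped or tied.

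The 3 beta members summed to 6.07, 4.13 and 9.96 TPM in NF-YA fl/fl and to 0.85, 0.61 and 0.99 TPM in NF-YA cKO. Scn3b supplied 98.2% to 99.1% of the sum in NF-YA fl/fl and 73.8% to 78.8% in NF-YA cKO, where Scn2b supplied 16.4% to 19.2%. These shares are of the members' sums and not of all sodium channel transcripts. Scn9a, an alpha subunit gene that is not a member, had 0.91, 1.38 and 1.26 TPM in NF-YA cKO replicates 1 to 3. In each of these libraries Scn9a was above the sum of the 5 alpha members. In NF-YA fl/fl replicates 1 to 3 it had 1.73, 5.53 and 0.29 TPM.

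**Figure D3:**
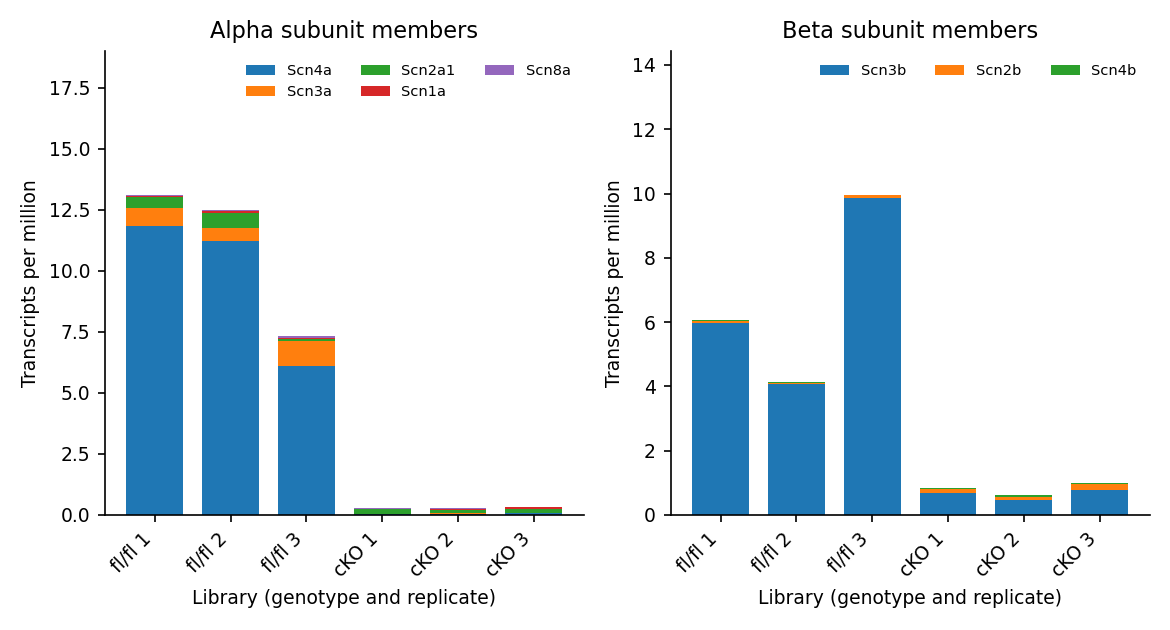
Stacked TPM of the 5 alpha subunit members (left) and the 3 beta subunit members (right) in each library. The sum of the alpha members is 7.32 to 13.1 TPM in NF-YA fl/fl, mostly Scn4a, and 0.28 to 0.34 TPM in NF-YA cKO, mostly Scn2a1. Scn3b makes up most of the sum of the beta members in all 6 libraries. Scn9a, which is not a member, is not drawn.

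Of 5 other sodium channel genes followed (Scn7a, Scn9a, Scn10a, Scn11a and Nalcn), 3 were tested, with a median log2 fold change of -1.54. By edgeR 1 was called lower and 0 higher (1 and 0 by DESeq2, 2 and 0 at an unadjusted p under 0.05). Scn10a, a channel of sensory neurons, was called lower, with 29, 13.0 and 13 counts in NF-YA fl/fl and 1 count in each NF-YA cKO library. Its pooled ratio was 22.8 with an interval of 7.42 to 114, and its edgeR call (adjusted p = 0.00326) held under 10 of 16 alternatives and was lost when any 1 of the 3 NF-YA cKO libraries was left out. Scn7a, a sodium-sensing relative, and Scn9a, the Nav1.7 gene of sensory neurons, had log2 fold changes of -1.54 (edgeR adjusted p = 0.102) and -0.79 (edgeR adjusted p = 0.446). Scn11a and the leak channel gene Nalcn were below the filter.

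The control libraries ranked the channel genes in different orders. Scn4a was highest in NF-YA fl/fl replicate 1 and lowest in replicate 3 (82.0, 61.8 and 50.9 CPM), while Scn3a (5.43, 3.42 and 9.19 CPM) and Scn3b (20.7, 11.8 and 41.4 CPM) were highest in replicate 3 and lowest in replicate 2. Scn2a1 (3.21, 3.75 and 0.780 CPM), Scn7a (1.34, 2.23 and 0.305 CPM) and Scn9a (14.1, 38.5 and 3.05 CPM) showed the opposite order to Scn3b, highest in replicate 2 and lowest in replicate 3. The summed TPM of 6 markers of fibro-adipogenic progenitors had the order of Scn2a1, at 86.7, 158 and 16.7 TPM in NF-YA fl/fl replicates 1 to 3. So did Schwann cell markers at 31.2, 44.1 and 14.4 TPM and neuron markers at 11.8, 17.7 and 3.88 TPM. Most of the Schwann cell marker sum was Pmp22, at 19.5, 26.9 and 7.63 TPM. Most of the neuron marker sum was Uchl1, at 10.5, 15.35 and 3.21 TPM. The part of these cells in the Scn2a1 values was not tested.

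RSEM divided the reads of each gene among its annotated transcripts. Of Scn4a, the 8125-nt form took 91.0% to 96.7% of the counts in NF-YA fl/fl and 60.2% to 100% of the few counts in NF-YA cKO, and the rest went to a 4978-nt form. Of Scn3b, the 4151-nt form took 74.1% to 80.0% in NF-YA fl/fl and 57.8% to 100% in NF-YA cKO. Over the 9 transcripts of Scn4a, Scn3b and Scn2a1 tested, exact two-sided permutation p ranged from 0.4 to 1 (Benjamini-Hochberg adjusted 0.72 to 1), where 3 libraries against 3 cannot go below 0.1. The counts of Scn3a in NF-YA fl/fl were spread over several forms, with 18.0% to 42.6% on the 9560-nt and 17.5% to 54.2% on the 8450-nt form. For Scn2b all counts went to the 4481-nt form in the 3 control libraries and in NF-YA cKO replicate 1 and to the 4562-nt form in NF-YA cKO replicates 2 and 3, a split set by few reads.

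Genes whose products bind or anchor sodium channels were followed as a list of 22, of which 21 were tested. In NF-YA cKO 4 were called lower and 0 higher by edgeR (5 and 0 by DESeq2, 9 and 4 at an unadjusted p under 0.05), with a median log2 fold change of -0.25. Cav3, the caveolin of the muscle membrane, had 121, 68.3 and 84.4 CPM in NF-YA fl/fl replicates 1 to 3 and 0.670, 0.652 and 0.917 CPM in NF-YA cKO replicates 1 to 3 (log2 fold change -6.92, edgeR adjusted p = 5.3e-05). The other called partners were Sntb1, a syntrophin that links membrane proteins to the dystrophin complex (log2 fold change -4.54), Fgf13, a cytosolic channel-binding factor (-1.97), and Sptbn1, a spectrin of the submembrane skeleton (-1.12). The ankyrin genes Ank2 and Ank3, the ubiquitin ligase gene Nedd4, the syntrophin gene Sntb2 and the calmodulin gene Calm3 did not pass, with log2 fold changes of 0.03, 0.36, 0.09, 0.20 and 0.17. The remaining partners that were tested without a call lay between -2.68 (Cntn1) and 0.93 (Nfasc).

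**Figure D4:**
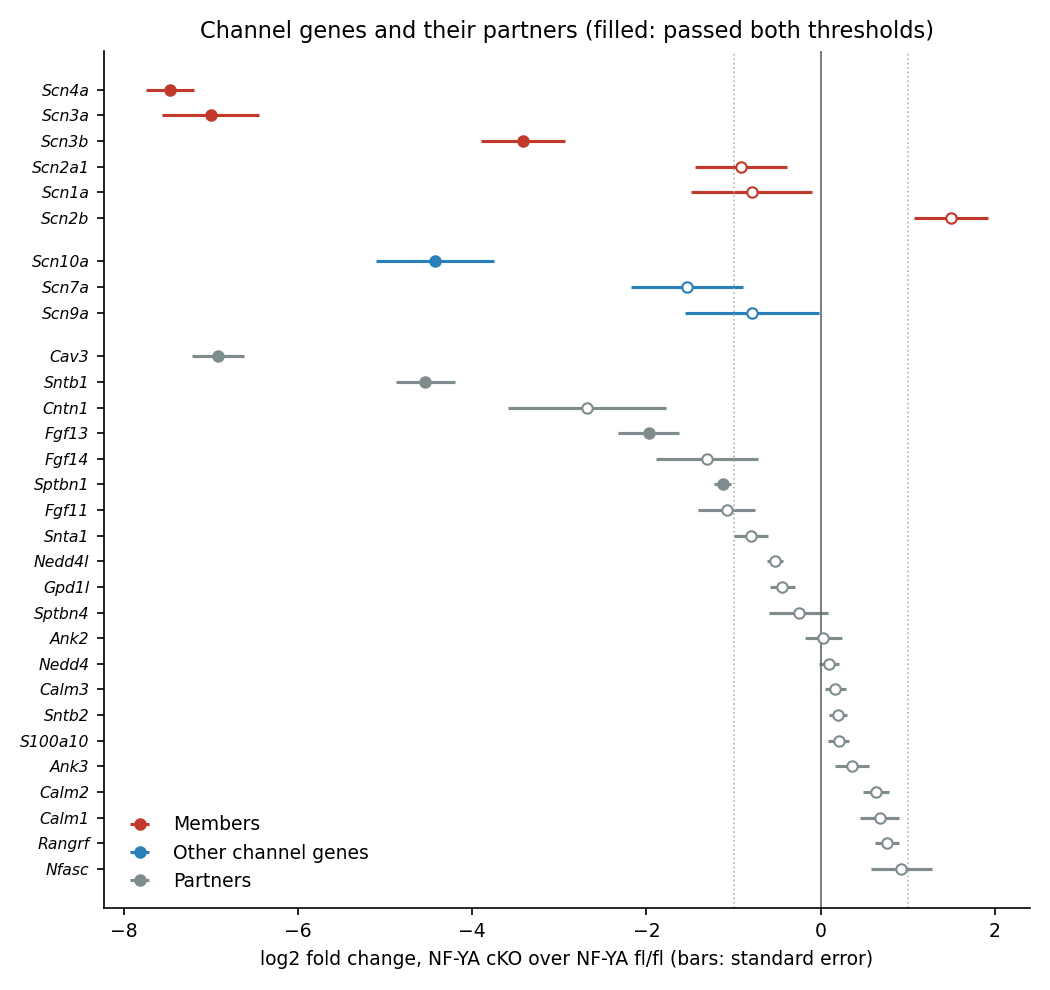
Log2 fold change of the tested members (red), other sodium channel genes (blue) and channel partners (grey), with the standard error as bars and filled points where both thresholds, an adjusted p under 0.01 and a log2 fold change beyond 1 (dotted lines), were passed. Scn4a and Cav3 lie near -7, while most partner genes lie near 0.

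Other genes of muscle excitability were mostly lower as well. Of 24 genes listed, 22 were tested, of which 14 were called lower and 0 higher by edgeR (15 and 0 by DESeq2, 16 and 1 at an unadjusted p under 0.05), with a median log2 fold change of -2.04. Cacna1s, the voltage sensor of the transverse tubules, was at 40.7 to 65.3 TPM in NF-YA fl/fl and 0.06 to 0.23 TPM in NF-YA cKO (log2 fold change -8.34). Also called lower were Ryr1, the calcium release channel it gates (-5.00), Kcnj2, an inward rectifier potassium channel (-3.72), and Atp1b2, a beta subunit gene of the sodium pump (-3.47). Kcnc4, a potassium channel gene, was called lower, with 0 to 0.0470 CPM in NF-YA cKO and at most 1.34 CPM in NF-YA fl/fl. The chloride channel gene Clcn1 and the acetylcholine receptor gene Chrna1 did not pass, with log2 fold changes of -0.46 and -0.43. All 10 genes of differentiated muscle found in the table were called lower, with a median log2 fold change of -6.69, beside -7.47 for Scn4a.

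Lists of markers of other cells were read beside the channel genes, since several alpha subunits are known from neurons. Neuron markers summed to 21.2 to 26.03 TPM in NF-YA cKO and 3.88 to 17.7 TPM in NF-YA fl/fl. Most of this sum was Uchl1, at 18.8 to 24.5 and 3.21 to 15.35 TPM. Stmn2 went the other way (0.03 to 0.08 and 0.15 to 0.75 TPM). Of the neuron markers, 0 of the 6 tested were called by edgeR (1 lower and 1 higher by DESeq2, and 1 and 1 at an unadjusted p under 0.05). Of 9 Schwann cell markers 5 were called higher, with sums of 29.9 to 39.4 and 14.4 to 44.1 TPM. In CPM, 7 of the 9 had every NF-YA cKO library above every control library, a pattern of 29.1% of all tested genes. Egr2 and Pmp22 overlapped, and Pmp22 was the largest part of the sums (10.7 to 15.5 and 7.63 to 26.9 TPM). Of 10 macrophage markers 9 were called higher, with a median log2 fold change of 3.67. Of 6 endothelial markers 1 (Kdr) was called higher, at sums of 3.71 to 4.77 and 1.04 to 3.26 TPM, and of 6 fibro-adipogenic markers 1 (Lum), at 79.1 to 103 and 16.7 to 158 TPM. Of 7 mural and smooth muscle markers 6 were tested and 2 (Acta2 and Abcc9) were called lower, at sums of 398 to 586 and 1053 to 1339 TPM. Acta2 made up most of these sums (361 to 547 and 1022 to 1203 TPM). Abcc9 and Rgs5 differed in the same direction without overlap in TPM, though Rgs5 had no call. Pdgfrb, Cspg4 and Myh11 overlapped. Kcnj8, below the filter, went the other way (0.09 to 0.15 and 0.04 to 0.08 TPM). Of 8 SC markers 2 (Cdh15 and Des) were called lower and 0 higher by edgeR (3 and 0 by DESeq2, 3 and 3 at an unadjusted p under 0.05), with a median log2 fold change of 0.36. Pax7, Vcam1 and Sdc4 had their lowest NF-YA cKO value above their highest control value in CPM, with log2 fold changes of 0.94, 0.86 and 0.80 (edgeR adjusted p = 0.00624, 0.0101 and 0.00446). All were short of the fold threshold, and Vcam1 also missed the adjusted p threshold of 0.01. No marker was at 0 in all libraries. The part of any of these cells in the Scn values, Scn2b included, was not tested.

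Among the genes whose pattern over the 6 libraries was most like that of Scn4a were Trim72, Pkhd1, Tcap and Mtcl1, out of the 9455 genes that averaged 10 CPM or more. Their Pearson correlations with Scn4a on log2(CPM + 0.5) were 0.9991 to 0.9996, a description over 6 libraries in which the gap between genotypes accounts for most of the spread. Trim72, a membrane repair protein of muscle, had 193 to 295 CPM in NF-YA fl/fl and 1.98 to 2.66 CPM in NF-YA cKO, and Tcap, the telethonin of the sarcomere Z-disc, had 24.9 to 44.0 and 0.0638 to 0.235 CPM. Within genotypes, after the genotype means were taken out, the genes with the largest correlations with Scn4a were Ahi1, Fuca1, Prss23, Mafk and Slc10a3 (0.983 to 0.997). None of them was called, and the 2 measures named different genes. The within-genotype values are the largest of 9455 over only 6 libraries and were not tested, so values this high can arise by selection alone. Their NF-YA cKO part rests on 10 to 19 counts of Scn4a per library.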

How the data were processed

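RNA was sequenced as 3 libraries of SC cultures from knockout mice and 3 from control mice, grouped by the genotype in the labels. The authors made stranded total RNA libraries and, per the labels, used Bowtie2, RSEM and the mm10 build. Expected counts, as deposited, are estimates that split reads shared between transcripts or paralogs and are neither normalized nor filtered. The deposited TPM values are scaled by length and keep no depth. The deposited percent of each transcript is its share of the gene's TPM, by the authors' RSEM run.

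After rounding, 17348 of 35976 genes exceeded 10 counts in 2 or more libraries and were fitted together in edgeR 4.0.16 (R 4.3.3), by a quasi-likelihood test of genotype after TMM scaling, with Benjamini-Hochberg adjusted p-values. Genes with an adjusted p under 0.01 and a log2 fold change beyond 1 were called, the filter and thresholds being those of the study's methods. A gene with 10 counts or fewer in every library of 1 genotype could pass the filter only through the other. Scn10a, Kcnc4 and Atp1b2 passed it only through NF-YA fl/fl. A standard error is the size of the log2 fold change divided by the root of F. Nothing in the labels says more of the replicates than their number, so p-values measure the spread between these cultures. At these depths 3 counts equal 0.0730 to 0.111 CPM, and intervals cover counting error only. The fit was tested on simulated counts. Alternatives were DESeq2 1.42.0, limma 3.58.1 on TPM, other filters, scalings and thresholds, a replicate block and leaving out each library.

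Named genes were the 8 members, the called genes of each list (up to 6 by size of change), cell type markers, and the 5 genes most correlated with Scn4a. Some genes that this rule and the lists would name are not reported here. Genes named as examples without a call, and the alternatives of Scn10a, were chosen after their values were seen. The members and lists were chosen with earlier results of these data known. Identity between subunit proteins was planned and not run, since no protein table was used here. Coordinates are those of GRCm38 in RefSeq.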

Additional observations from a re-analysis of the deposited data

How the results depend on the processing

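Of the 6 tested members, 2 to 4 were called lower over all alternatives and leaving out each library gave 2 to 4. No alternative reversed the direction of a member's log2 fold change, the calls that changed being those given with Scn3a, Scn3b, Scn2a1 and Scn2b. The number of members called higher was 1 at an adjusted p under 0.05. Counts over all genes moved more: limma on log2(TPM + 1) called 668 lower and 177 higher, limma on log2(TPM + 0.1) 279 higher, an adjusted p under 0.05 gave 2025 lower, and testing for changes beyond 1 gave 510 lower and 97 higher, a stricter hypothesis by construction. Leaving out each library gave 523 to 1684 lower and 177 to 890 higher. DESeq2 called 1804 lower and 986 higher.

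Same-numbered libraries did not deviate together (correlations of 0.21, -0.10 and 0.05 over genes), not every library correlated best with its own number, and no label ties the numbers to a shared animal or day. With the replicate number as a block 947 genes were called lower and 625 higher, with 3 members lower and 0 higher.

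Transcript shares of Scn3b, given as NF-YA cKO minus NF-YA fl/fl in percentage points, changed sign when 1 library was left out: that of the 4151-nt form ran from -1.44 without NF-YA cKO replicate 1 to 19.7 without NF-YA cKO replicate 2, and that of the 3502-nt form from -7.78 without NF-YA cKO replicate 2, to 5.77 without NF-YA cKO replicate 1. Leaving out NF-YA fl/fl replicate 2 gave -1.99 for the 3502-nt form. That of the 7703-nt form of Scn2a1 ran from -21.0 to 0, the last without NF-YA fl/fl replicate 3, the only library with counts on it. The other causes were not tested. In NF-YA cKO, 3 to 19 counts per library of Scn4a, Scn1a, Scn8a and Scn4b limit what shares or small changes can show.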
